A study of Mus musculus with 4 samples.

Results

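The constitutive proteasome genes described here are those whose symbol begins with Psma, Psmb, Psmc, Psmd, Psme, Psmf or Psmg followed by a digit, without the inducible subunits Psmb8, Psmb9 and Psmb10. The rule reads the symbol and no measured value. It found 47 genes (with 53 probe sets, as 5 genes have several) among the 19938 genes with a probe set that names a single gene, and each gene was represented by its brightest probe set on average. Of these genes, 45 encode subunits, activators, chaperones or regulators of the proteasome. Psmc3ip, a cofactor of meiotic recombination, and Psme3ip1, a partner protein of the activator Psme3, carry such symbols without being proteasome subunits and were kept apart.

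Male mice of the inbred strain C57BL/6J were studied to see how aging and a high-fat diet affect the colon. Young mice of 4 months and old mice of 21 months ate purified diets with palm oil as the fat source for 2 weeks, with 10% (low-fat) or 45% (high-fat) of the energy as fat. All mice had eaten chow and then the low-fat diet beforehand, and the labels name no transgene or mutation. RNA from scrapings of colon mucosa and submucosa was pooled from 6 young or 8 old mice per diet group, with 1 array (Affymetrix Mouse Gene 1.0 ST) for each pool, which gives 4 arrays and no replicate in any group.

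The proteasome degrades proteins that carry a ubiquitin chain. Its 20S core is a barrel of alpha rings, which gate the entry, and beta rings, which hold the proteolytic sites, and the 19S regulatory particle at its ends binds, deubiquitinates, unfolds and feeds in the substrate. Other activators can take the place of the 19S particle, dedicated chaperones assemble the complex, and interferon exchanges the standard catalytic subunits for inducible ones in the immunoproteasome, which favours peptides for presentation on MHC class I.

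In the colon 43 of the 45 proteasome genes had a linear signal over 50 on at least 1 array, the floor used by the study. The exceptions were both tissue-restricted core subunits. Psma8, the testis form of an alpha subunit, had linear signals of 17.8, 16.2, 16.8 and 16.8 for young low-fat, young high-fat, old low-fat and old high-fat mice, an order of arrays that is kept for every set of 4 values. Psmb11, the catalytic subunit of the thymus cortex, had linear signals of 48.2, 43.4, 48.8 and 42.0. A signal below the floor is only a bound and no fold was taken from it. The 43 genes are the base of all counts, beside the 12667 genes of the series above the same floor. Psme2b was measured only by a probe set shared with Psme2 and was not counted as a member.

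Differences between the arrays were not confined to the proteasome genes. Across all probe sets the young low-fat array correlated best with the old high-fat array (Pearson's r = 0.9933) and the young high-fat array with the old low-fat array (r = 0.9924), and the other pairs lay between 0.9894 and 0.9912. Over the 12667 genes above the signal floor the pairing was less clear, as the old low-fat array correlated better with the old high-fat array (r = 0.9912) than with the young high-fat array (r = 0.9907). The median log2 signal of the 12146 probe sets without a gene paired the arrays as all probe sets did, with values of 5.63, 5.82, 5.80 and 5.65. The 31 subunits of the core and the 19S particle showed this pairing as well. Their r was 0.992 for the young high-fat and old low-fat arrays and 0.977 for the young low-fat and old high-fat arrays. The other pairs lay between 0.943 and 0.968. Colon epithelium markers were present on every array (8 of 9 measured and all 8 above the floor, summed linear signal 52700 to 54850). Markers of other tissues differed between arrays. The 6 smooth muscle markers summed to 3686 on the young high-fat array and to 1284 to 1611 on the others. The 5 adipocyte markers summed to 980.9, 483.7, 1120 and 2341. The 2 liver markers summed to 432.4 on the old low-fat array and to 40.96 to 45.8 on the others, where Alb and Serpina1c were below the floor. In pooled tissue, fewer cells of a type and less RNA per cell cannot be told apart.

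Proteasome promoters are known for ETS sites and, in some genes, for the antioxidant response element that the transcription factor Nfe2l1 binds. A promoter window of 250 bases before to 50 bases after the start was given by RefSeq (GRCm38.p6) for 37 of the 45 proteasome genes, with 40 windows in all. The letters CCGGAAG, an ETS site, were found on either strand in 15 of the 40 windows (37.5%), against 8.86% of all 32851 windows and 16.3% of the 12784 windows of genes above the floor. The following stretches of 60 bases before the start are shown because the first genes had their highest signal on the old high-fat array and the last genes had it on the young high-fat or old low-fat array, while all hold these letters. They are written on the strand of the gene and the capitals mark CCGGAAG or its reverse complement. They lie at chr14:14120957-14121016 (minus strand) for Psmd6, chr16:20651592-20651651 (plus) for Psmd2, chr5:21785165-21785224 (plus) for Psmc2, chr11:107479468-107479527 (plus) for Psmd12, chr11:101316080-101316139 (plus) for Psme3, chr11:30771696-30771755 (plus) for Psme4 and chr14:45329698-45329757 (plus) for Psmc6.
Psmd6: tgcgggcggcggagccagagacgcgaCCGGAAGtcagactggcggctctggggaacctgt
Psmd2: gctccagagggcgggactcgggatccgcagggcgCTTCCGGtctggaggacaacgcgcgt
Psmc2: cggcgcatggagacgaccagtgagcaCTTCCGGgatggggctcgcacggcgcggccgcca
Psmd12: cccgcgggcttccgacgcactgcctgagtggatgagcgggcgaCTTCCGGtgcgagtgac
Psme3: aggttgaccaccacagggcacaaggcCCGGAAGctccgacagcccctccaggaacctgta
Psme4: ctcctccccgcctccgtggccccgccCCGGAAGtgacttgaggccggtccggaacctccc
Psmc6: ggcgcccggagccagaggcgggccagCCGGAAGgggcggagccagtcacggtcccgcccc

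The core of the antioxidant response element, TGACNNNGC, was found in 6 of the 40 windows (15%), against 12.4% of all windows and 14.1% of those of genes above the floor. Of the genes that hold it, Psmb5, Psmb6 and Psmd12 had young low-fat and old high-fat signals above the other arrays. Psmc6 and Psme4 had the opposite order, and Psmd9 had neither. The windows of the catalytic subunits Psmb5 (chr14:54618008-54618067, minus strand) and Psmb6 (chr11:70525297-70525356, plus) hold it close to the start, and are shown with these letters in capitals.
Psmb5: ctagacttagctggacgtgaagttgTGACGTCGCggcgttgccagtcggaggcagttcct
Psmb6: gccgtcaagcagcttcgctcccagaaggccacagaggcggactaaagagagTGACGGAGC

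CCAAT was found in 13 windows (32.5%, against 37.4% of all windows), the core of the interferon-stimulated response element in 5 (12.5%, against 3.44%), and TTCNNNGAA, the core of the gamma-activated site, in 2 (5%, against 8.3%). A match of letters is not a binding site.

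Of the possible orders of the arrays, the proteasome genes showed 1 more often than the rest. No proteasome gene differed 2.0-fold between 2 arrays in any of the 4 comparisons that age and diet allow, where 0.103% to 0.663% of all genes did, a share too low to expect any among 43 genes. The highest log2 signal of 30 of the 43 genes (69.8%) was on the old high-fat array, which held it for 28.5% of all genes. The lowest signal of 23 genes (53.5%) was on the old low-fat array, which held it for 23.1% of all genes. For 22 of the 43 genes (51.2%) the young low-fat and old high-fat signals both lay above the young high-fat and old low-fat signals. This order was found in 24.9% of all genes and was the most frequent of the orders counted there too. It has the same pairs of arrays that correlated best across all probe sets. Under median centring of the arrays that order held for 28 proteasome genes and 39.9% of all genes. The opposite order was found for 6 genes, Psma1, Psmc6, Psmd8, Psmd11, Psme3 and Psme4 (14%, against 23.7% of all genes). Under median centring it held for Psme3 and Psme4 alone and for 13.6% of all genes. For 6 genes (Psma4, Psmd1, Psmd10, Psmd14, Psme1 and Psmg1) both old arrays lay above both young arrays (14%, against 16.1%), and for Psmb4 and Psmd13 both lay below (4.65%, against 12.3%). Both high-fat arrays lay above both low-fat arrays for 7 genes, Psma3, Psma5, Psma6, Psmb2, Psmb7, Psmd5 and Psmd9 (16.3%, against 11.8%), and the reverse was found for 0 genes (10.9% of all genes).

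**Figure D1:**
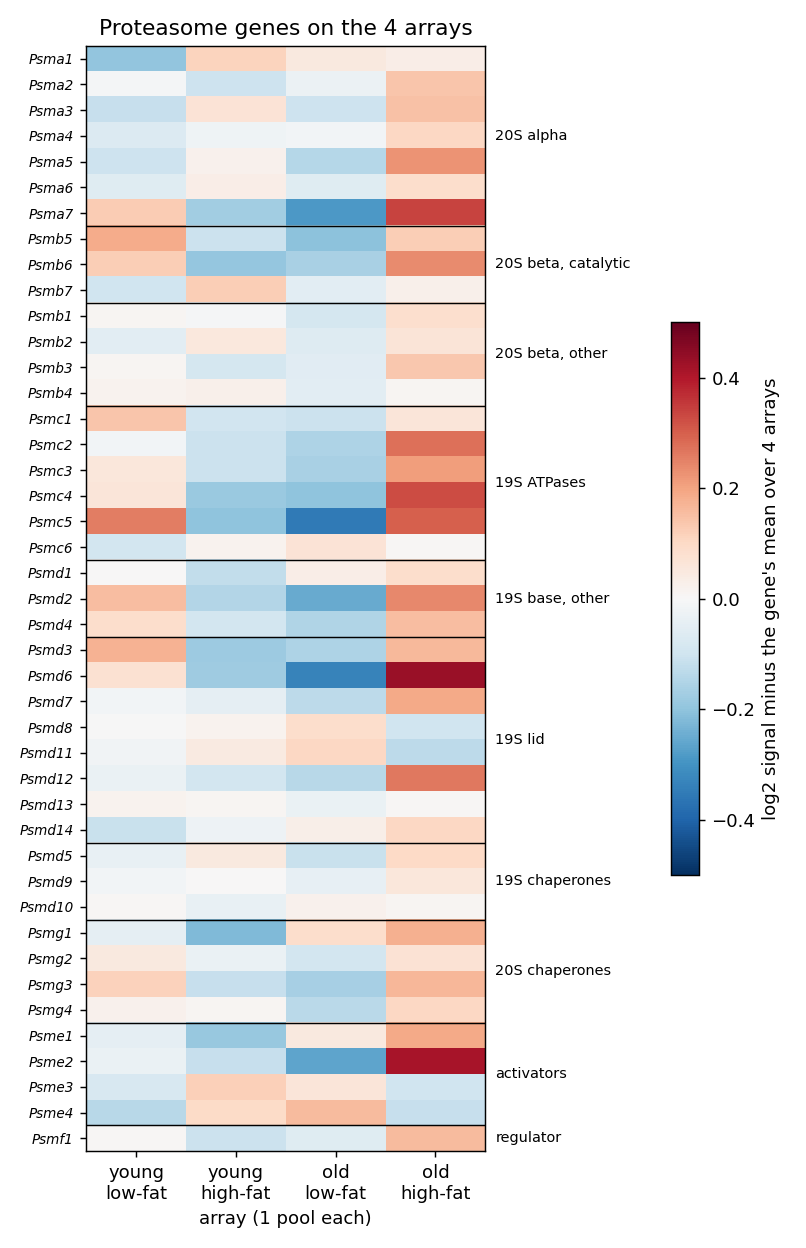
Log2 signal of each of the 43 proteasome genes above the floor on the 4 arrays (columns, 1 pool each) as a difference from the mean of that gene over the arrays, in colour, with genes grouped by role. Most rows are red on the old high-fat array and blue on the old low-fat array, and Psmd8, Psmd11, Psme3 and Psme4 show the opposite.

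The alpha ring, which closes and opens the entry to the core, was mostly even. Psma7 had log2 signals of 9.45, 9.15, 9.04 and 9.66. It was thus high on the young low-fat and old high-fat arrays, and its signal in old mice was 1.33-fold below that in young mice under low-fat and 1.43-fold above it under high-fat feeding. Psma1 had log2 signals of 10.34, 10.65, 10.59 and 10.57, with the young low-fat array below the rest. The remaining alpha subunits (Psma2, Psma3, Psma4, Psma5 and Psma6) spanned 0.15 to 0.37 on the log2 scale over the 4 arrays. Psma5 was 1.29-fold higher on the high-fat than on the low-fat diet in old mice. This log2 difference of 0.37 was 0.10 for its second probe set.

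The catalytic beta subunits differed among themselves. Psmb5, which carries the chymotrypsin-like site, had log2 signals of 9.39, 9.09, 9.00 and 9.33. Psmb6, which carries the caspase-like site, had 9.69, 9.38, 9.41 and 9.81. In both genes the young low-fat and old high-fat arrays were high and the other arrays low, without overlap. Psmb7, which carries the trypsin-like site, had log2 signals of 10.68, 10.90, 10.72 and 10.80, with both high-fat arrays above both low-fat arrays. The structural beta subunits Psmb1, Psmb2, Psmb3 and Psmb4 spanned only 0.08 to 0.22 on the log2 scale.

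In interferon-exposed cells Psmb9 takes the place of Psmb6, Psmb10 that of Psmb7 and Psmb8 that of Psmb5. Psmb8 had log2 signals of 7.64, 7.82, 8.51 and 8.68 and Psmb9 had 8.34, 8.51, 8.92 and 9.10, so that both old arrays lay above both young arrays. Psmb10 had 9.40, 9.65, 9.75 and 9.62. The age difference of Psmb8 was 0.87 under low-fat and 0.86 under high-fat feeding, on the log2 scale, whereas that of its standard counterpart Psmb5 was -0.39 and 0.23. For Psmb9 it was 0.58 and 0.59, and for its counterpart Psmb6 -0.29 and 0.43. The 5 interferon-stimulated marker genes summed to 718.3, 846.8, 2124 and 2386 linear units and the 5 T cell markers to 397.6, 515.1, 797.9 and 950. The 2 measured B cell markers summed to 106.5, 90.3, 198.7 and 174.6 and the 3 plasma cell markers to 1800, 2063, 2670 and 2570. The 3 macrophage markers, of which 2 were above the floor, summed to 318.5, 367.4, 716.3 and 696. All these sums were higher on the old arrays. The part of these markers in the levels of Psmb8 and Psmb9 was not tested.

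**Figure D2:**
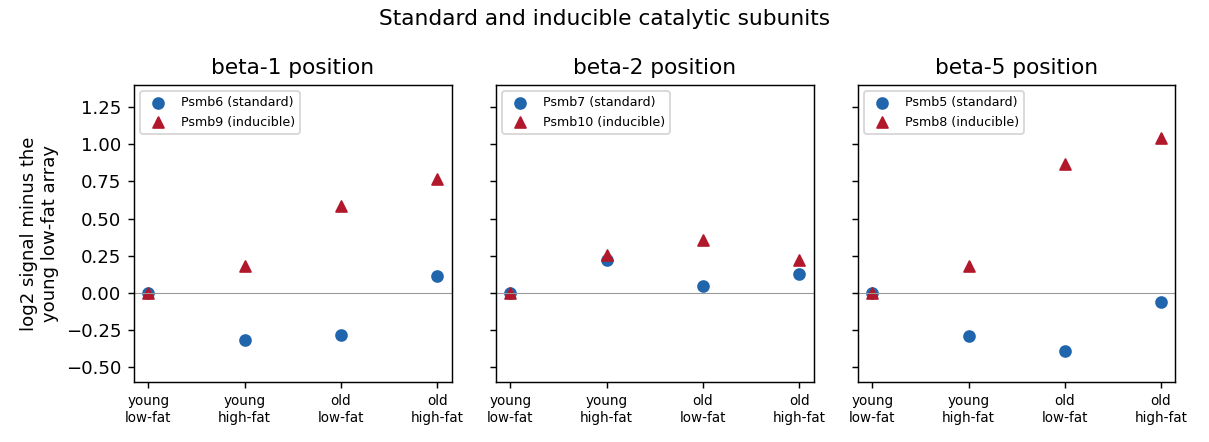
Log2 signal minus that of the young low-fat array for the standard (circles) and inducible (triangles) subunit of each catalytic position, by array (1 pool each). The inducible Psmb8 and Psmb9 were highest on both old arrays, while the standard Psmb5 and Psmb6 were low on the young high-fat and old low-fat arrays.

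The ATPase ring of the 19S base, which unfolds the substrate, held the gene whose age difference varied most between the diets. Psmc5 (probe set 10382069) had log2 signals of 10.02, 9.57, 9.41 and 10.06. Its signal in old mice was 1.53-fold below that in young mice under low-fat feeding and 1.41-fold above it under high-fat feeding. Psmc4 had log2 signals of 8.75, 8.50, 8.48 and 9.01, again high on the young low-fat and old high-fat arrays. Psmc1, Psmc2 and Psmc3 shared this order and spanned 0.25 to 0.43 on the log2 scale. Psmc6 had 10.34, 10.45, 10.50 and 10.44, a range of 0.16.

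Of the other subunits of the base, Psmd2, a scaffold that receives ubiquitin-like domains, had log2 signals of 10.41, 10.11, 10.00 and 10.50, and its second probe set had 10.24, 9.88, 9.90 and 10.23. Both probe sets were thus high on the same arrays. The ubiquitin receptor Psmd4 had 8.58, 8.41, 8.35 and 8.65 and was in the same order. The scaffold Psmd1 had 10.41, 10.28, 10.44 and 10.49 and was not.

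The lid, which removes the ubiquitin chain, was split. Psmd6 (probe set 10417689) had log2 signals of 9.67, 9.42, 9.26 and 10.03, the widest range of the 43 genes (0.77). Psmd3 had 8.77, 8.41, 8.44 and 8.76. In both the young low-fat and old high-fat arrays were high, as they were for Psmd7 and Psmd12. The opposite was seen for Psmd11, which braces the lid against the core, with 9.95, 10.01, 10.07 and 9.83, and for Psmd8 with 9.96, 9.99, 10.05 and 9.87. Psmd14, the deubiquitinating enzyme of the lid, had 10.08, 10.16, 10.22 and 10.29, with both old arrays above both young arrays. Psmd13 had the smallest range of the 43 genes (0.05).

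Among the chaperones, Psmd5, Psmd9 and Psmd10, which assemble the base, spanned 0.21, 0.09 and 0.06 on the log2 scale. Of those that assemble the core, Psmg1 had log2 signals of 7.96, 7.78, 8.09 and 8.18, with both old arrays above both young arrays. Its partner Psmg2 had 7.90, 7.82, 7.76 and 7.93. Psmg3 and Psmg4 spanned 0.33 and 0.24.

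The activators fell into 2 pairs. Psme1 and Psme2, whose products form the interferon-inducible cytoplasmic activator, were highest on the old high-fat array. Psme1 had log2 signals of 10.33, 10.18, 10.43 and 10.56, with both old arrays above both young arrays. Psme2 had 10.11, 10.03, 9.88 and 10.56, so that the old low-fat array was the lowest and the old high-fat array the highest. The probe set shared by Psme2 and Psme2b had 8.68, 8.66, 8.60 and 9.39, with the same array lowest and highest. Psme3, which forms the nuclear activator, had 9.84, 10.04, 9.98 and 9.82, and Psme4, a large single-chain activator, had 9.86, 10.10, 10.16 and 9.89. For these nuclear activators the young high-fat and old low-fat arrays were above the other arrays. Psmf1, a regulator that binds the core, had 8.25, 8.13, 8.18 and 8.40.

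Neither gene that carries a proteasome symbol without being a subunit was in the leading order. Psmc3ip had log2 signals of 5.92, 5.98, 5.84 and 5.73, with both young arrays above both old arrays. Psme3ip1 had 8.09, 8.31, 8.08 and 8.18.

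To ask how aging affected the genes on each diet, old and young arrays were compared, a comparison of pools with no replicate and no p-value. Because small differences were of interest, genes were also counted when the higher of both signals exceeded the lower by over 25%, beside the 2.0-fold threshold of the study and 1.5-fold. On the low-fat diet 0 of the 43 genes passed 2.0-fold (0.426% of all genes did) and Psmc5 alone passed 1.5-fold (2.26% of all genes). Past 25% were 6 genes, all lower in old mice (14%), where 6.47% of all genes were lower and 14.6% passed in either direction: Psma7, Psmb5, Psmc5, Psmd2, Psmd3 and Psmd6. The share in either direction was near that of all genes. The count was 10 under median centring, all lower, but that setting lowered all genes. Of these, 36.7% were then above 0, with a median of -0.07, and their share past 25% was not counted. The median log2 difference was -0.07, against 0.01 over all genes, and 15 of the 43 genes were above 0 (34.9%, against 51.1%). The highest differences were 0.30 for Psme4 and 0.25 for Psma1. The 2 liver markers had a median log2 difference of 3.18 in this comparison, and their part in the result was not tested.

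On the high-fat diet 0 genes passed 2.0-fold (0.663% of all genes) and Psmd6 alone passed 1.5-fold (3.41% of all genes). Past 25% were 12 genes, all higher in old mice (27.9%), where 10.7% of all genes were higher and 17.1% passed in either direction: Psma7, Psmb6, Psmc2, Psmc4, Psmc5, Psmd2, Psmd3, Psmd6, Psmd12, Psme1, Psme2 and Psmg1. The median log2 difference was 0.20, against 0.01 over all genes, and 34 genes were above 0 (79.1%, against 53%). Psmd6 was highest with 0.61 (1.53-fold) and Psme3 and Psme4 were lowest with -0.22 and -0.21. The 5 adipocyte markers had a median log2 difference of 2.45 in this comparison and the 6 smooth muscle markers -1.53. Their part in the result was not tested.

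**Figure D3:**
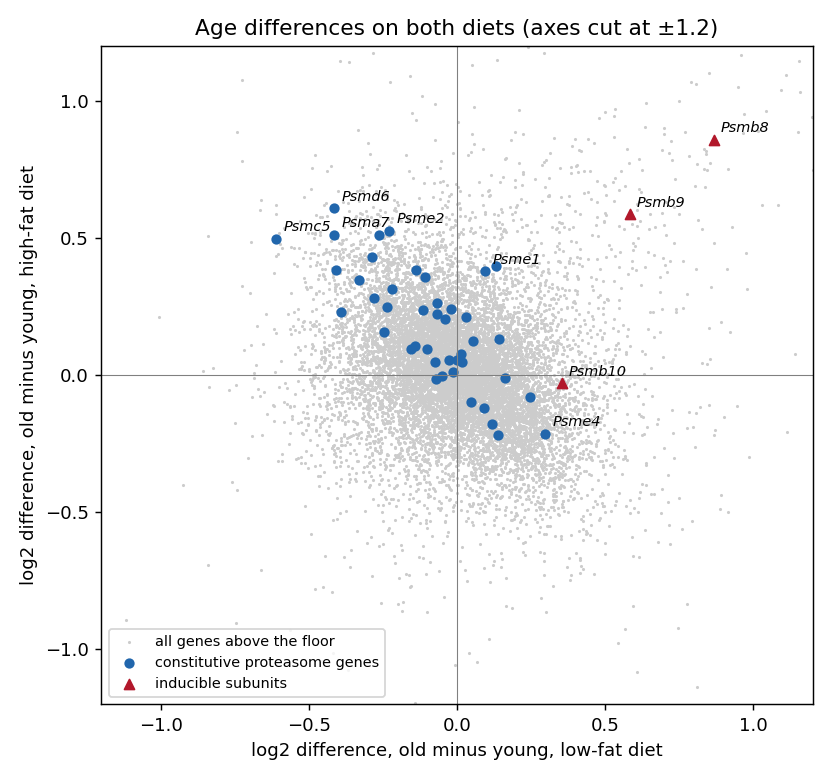
Log2 age difference (old minus young) under low-fat feeding (horizontal) and high-fat feeding (vertical) for all genes above the floor (grey), the 43 proteasome genes (blue) and the 3 inducible subunits (red triangles); 1 array per group. Psmc5, Psmd6 and Psma7 lie at the upper left, lower in old mice under low-fat and higher under high-fat feeding, while Psmb8 and Psmb9 lie at the upper right.

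The effect of the diet was compared in the same way within each age. In young mice 0 genes passed 2.0-fold (0.118% of all genes) and 0 passed 1.5-fold (1.45%). Past 25% were 2 genes, Psmc5 and Psmd3, both lower on the high-fat diet (4.65%), where 7.4% of all genes were lower and 14.5% passed in either direction. The count was 7 under median centring, where 36.2% of all genes were above 0, and 6 under quantile normalization (48.2%), all lower. The shares of all genes past 25% were not counted under these settings. The median log2 difference was -0.06, against -0.00 over all genes, and 16 genes were above 0 (37.2%, against 49%). In old mice 0 genes passed 2.0-fold (0.103% of all genes) and 4 passed 1.5-fold, Psma7, Psmc5, Psmd6 and Psme2 (1.14% of all genes). Past 25% were 13 genes, all higher on the high-fat diet (30.2%), where 6.76% of all genes were higher and 12.3% passed in either direction: Psma5, Psma7, Psmb5, Psmb6, Psmc2, Psmc3, Psmc4, Psmc5, Psmd2, Psmd6, Psmd12, Psme2 and Psmg3. Psmd6 was highest with 0.77 (1.70-fold) and Psme2 next with 0.68 (1.60-fold). The median was 0.18, against 0.01 over all genes, and 36 genes were above 0 (83.7%, against 51.5%). In the old mice the 5 adipocyte markers had a median log2 diet difference of 1.04 and the 2 liver markers -3.04, and in the young mice the 6 smooth muscle markers had 1.51 and the adipocyte markers -1.04. Their part in these results was not tested. Each array serves in 2 of the 4 comparisons, so that the counts on the old high-fat array are not independent of each other.

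The age by diet difference, the age difference on the high-fat diet minus that on the low-fat diet, put these comparisons in 1 value per gene. It was above 0 for 35 of the 43 genes (81.4%, against 51.9% of all genes), with a median log2 value of 0.25 against 0.02 over all genes. It passed 2.0-fold for Psmc5 (1.11) and Psmd6 (1.02), where 1.31% of all genes passed in either direction, and 1.5-fold for 9 genes, all higher (20.9%), where 5.59% of all genes were higher and 10.6% passed in either direction. Beside Psmc5 and Psmd6 these were Psma7, Psmb5, Psmb6, Psmc4, Psmd2, Psmd3 and Psme2. Median centring moved the median of all genes to 0.16 and that of the proteasome genes to 0.40, a gap of 0.23. By role the median was 0.07 in the alpha ring (6 of 7 above 0), 0.62 for the catalytic subunits (2 of 3), 0.13 for the structural beta subunits (4 of 4), 0.53 for the ATPases (5 of 6), 0.48 for the other base subunits (3 of 3) and 0.20 for the lid (5 of 8). It was 0.08 for the base chaperones (3 of 3), 0.26 for the core chaperones (4 of 4) and -0.04 for the activators (2 of 4, a median of 0.11 under median centring), and Psmf1 had 0.33. Markers of cell types moved as well, with a median age by diet difference of 2.15 for adipocyte markers (5 of 5 above 0), -1.80 for smooth muscle markers (0 of 6) and 0.17 for colon epithelium markers (6 of 8, with 0.57 for Vil1 and Aqp8 and 0.32 for Krt20). Their part in the result was not tested. The 19S particle had a higher median (0.46 over 17 genes) than the 20S core (0.13 over 14 genes), with values that overlapped. With 1 array per group the difference has no error and was not tested.

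**Figure D4:**
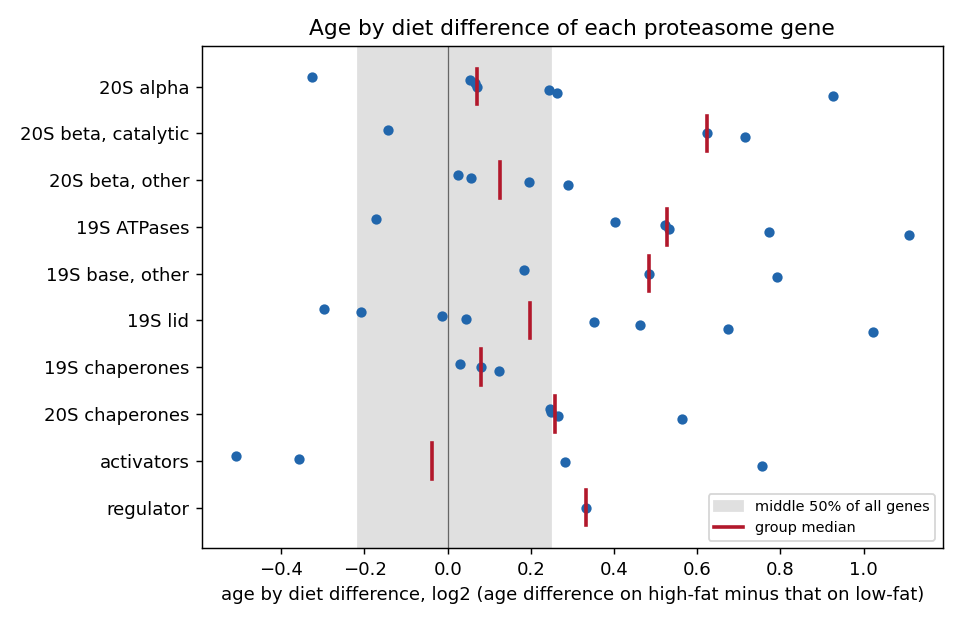
Age by diet difference (log2) of each of the 43 proteasome genes (points, heights spread within a row for legibility) by role, with the group median (red line) and the middle 50% of all genes above the floor (grey). The medians of the ATPases (0.53), the other base subunits (0.48), the catalytic subunits (0.62) and the core chaperones (0.26) lie right of the grey band. So does the lone regulator Psmf1 (0.33). Psma1 (-0.33), Psmd11 (-0.30), Psme3 (-0.36) and Psme4 (-0.51) lie left of it.

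Where probe sets of a gene disagreed in size, the sign of the age by diet difference was shared. The value was 0.79 and 0.70 for the probe sets of Psmd2, 0.40 and 0.11 for Psmc1, 0.29 and 0.12 for Psmb3, 0.24 and 0.12 for Psma5, and 0.05 to 0.07 for those of Psma3. The probe set used is the first of each pair. The array order was not always shared. The second probe sets of Psmc1 (9.03, 9.07, 9.06 and 9.21), Psmb3 (9.43, 9.56, 9.38 and 9.64) and Psma5 (9.18, 9.16, 9.26 and 9.36) did not have the order counted for these genes.

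The array order was also set against properties of the genes that the symbols did not use. The 31 subunits of the core and the 19S particle had a median age by diet difference of 0.26 and 25 were above 0, whereas the 4107 genes in the same signal range had a median of -0.04 and 1865 above 0. All genes were put into 5 groups of equal size by mean signal. The subunits fell into the brightest group and the group next to it. In the brightest group 12 of 18 subunits were above 0 (median 0.06), against 43.8% of all its genes (median -0.05). In the group next to it 13 of 13 were (median 0.48), against 47% of all its genes (median -0.03). Over all genes the share above 0 was highest in the dimmest group, with 62.2% (median 0.09). The same split was made by genomic span, from first to last base of the gene in RefSeq. The median was 0.08 in the group of the shortest genes (59.2% above 0) and -0.07 in that of the longest (41.7%). Going from the shortest to the longest group, 5 of 6, 11 of 12, 6 of 7, 2 of 4 and 1 of 2 subunits were above 0. Of all genes in these groups 59.2%, 58.2%, 53.8%, 46.5% and 41.7% were above 0. The part of signal or gene length in the pattern was not tested. The letters CCGGAAG were present in a promoter window of 7 of the 17 genes that had the leading array order and a window. These were Psmc1, Psmc2, Psmd2, Psmd4, Psmd6, Psmd12 and Psmg3. Of the 6 genes that had the opposite order and a window, 4 held the letters (Psmc6, Psmd11, Psme3 and Psme4). So did 14 of all 37 proteasome genes with a window, and 16.3% of the windows of genes above the floor. The share over all genes of each order was not counted, so these counts show no relation to the order.

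**Figure D5:**
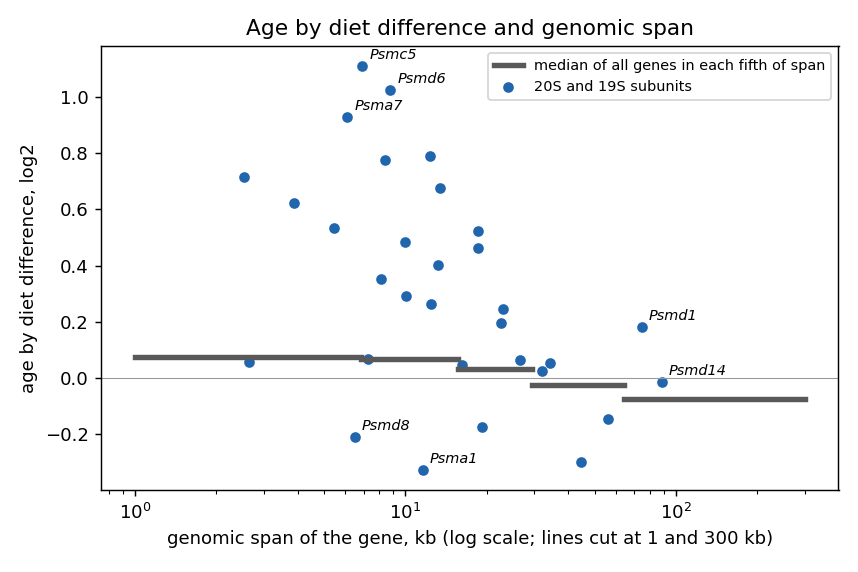
Age by diet difference (log2) against the genomic span of the gene (kb, log axis) for the 31 core and 19S subunits (points), with the median of all genes above the floor in each of 5 groups of span (bars). Psmc5, Psmd6 and Psma7 have short spans and lie far above the bars, and Psmd8 and Psma1 lie below them.

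Partners of the proteasome outside the symbol rule did not share the order as a list. Of the 21 measured genes of ubiquitin binding, deubiquitination, assembly and transcriptional control, 8 had an age by diet difference above 0, and the median was -0.17 (-0.02 under median centring, where the median of all genes was 0.16). The list also counts Sem1, a lid subunit whose symbol falls outside the rule, with log2 signals of 9.38, 9.56, 9.18 and 9.58 and a difference of 0.22. Pomp, the assembly chaperone of the core, had log2 signals of 10.90, 10.66, 10.69 and 11.07 and a difference of 0.62. Nfe2l1, the transcription factor of proteasome genes, had 9.94, 9.56, 9.67 and 9.83 and a difference of 0.54. Both were high on the arrays on which most subunits were high. Uba6, a ubiquitin-activating enzyme, had 8.48, 9.10, 9.09 and 8.65, the opposite order, and a difference of -1.06. In the list of 8 genes of MHC class I loading the median was 0.03. Tap1, a subunit of the peptide transporter, had 6.92, 6.93, 7.73 and 7.99, higher on both old arrays, with age differences of 0.81 and 1.06.

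Age and diet were last fitted together over the 4 arrays with limma, a fit with 1 residual degree of freedom whose residual is the age by diet difference. No proteasome gene passed for age at an adjusted p of 0.05 (limma, Benjamini-Hochberg over 12667 genes), where 0.395% of all genes did, and 0 genes had an unadjusted p under 0.05 (3.68% of all genes). The median change with age was 0.04 and the changes ran from -0.08 to 0.26. The highest was Psmg1 with 0.26 ± 0.16 (SE), with an adjusted p of 1.0 in limma. Psme1 followed with 0.24 ± 0.16. For diet 0 proteasome genes passed (limma, 0% of all genes) and 0 had an unadjusted p under 0.05 (0.718% of all genes), with a median change of 0.06 and changes from -0.09 to 0.30. The highest was Psme2 with 0.30 ± 0.20. The SE ran from 0.155 to 0.235 over the 43 genes, so that a log2 change of the size seen could not be told from 0.

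Of the inducible subunits Psmb8 had an estimated age change of 0.86 ± 0.16 at an adjusted p of 0.0575 in limma, which misses the threshold. Over the alternatives this p ran from 0.00421 to 0.162. The estimate was 0.58 ± 0.16 for Psmb9 (adjusted p of 0.338 in limma) and 0.16 ± 0.17 for Psmb10 (adjusted p of 1.0 in limma). Tap1 rose with age by 0.93 ± 0.16 at an adjusted p of 0.0444 in limma. This p was 0.115 with no signal floor and 0.115 without the old high-fat array, and ran from 0.000941 to 0.049 in the other alternatives. Whether the age change of an inducible subunit differed from that of its standard counterpart was not tested.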

How the data were processed

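The deposited table holds log2 signals per probe set, which the authors computed by RMA (Robust Multi-array Average; version not given in the sources used here). RMA corrects the background, brings all arrays to the same quantiles and condenses the probes of a set to 1 value. A shift shared by most genes would be removed. The methods describe probe sets redefined by Entrez gene, while the deposited rows carry transcript cluster identifiers of the manufacturer, named here by the annotation of the platform. The sources used here give no genome build for these values. The members and gene lists were chosen with earlier results of these data known.

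Genes with a linear signal over 50 on at least 1 array entered, after removal of pancreatic acinar genes (22 measured, 10 above the floor) in place of the expression atlas of the study. Log2 differences between 2 arrays have no replicate check. Counts past 2.0-fold, 1.5-fold or a difference of 25% (higher over lower signal) and medians were set beside the same over all 12667 genes. An additive model of age and diet was fitted in limma (version 3.58.1, under R 4.3.3) with moderated variances, and p-values were adjusted by Benjamini-Hochberg over all these genes with a threshold of 0.05. The fit was tested on simulated data with independent noise and age changes alone. No age by diet difference was built in, so the simulation cannot show how the fit treats one. Because each group is 1 pool, its SE and p measure no spread between pools of a group, and the number of arrays limits the precision. Promoter letters were searched on both strands of RefSeq windows. Proteins were not used here.

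Values on all arrays are given for the 5 highest and 5 lowest members of each comparison, members never above the floor, the catalytic subunits and the activators. Members past 25% the same way on both diets or at both ages, or past the adjusted threshold, would have been added. Other genes were added for comparison after their values were seen. Alternatives were floors of 0, 20 and 100, a fold of 1.5, median centring, quantile normalization, averaged probe sets, other limma settings and fits without 1 array. The array orders under these settings were added after the data were seen.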

Additional observations from a re-analysis of the deposited data

Results flagged for a closer look

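For 5 proteasome genes the age difference passed 25% (higher over lower signal) in opposite directions on the diets, lower in old mice on the low-fat diet and higher on the high-fat diet. Their age by diet differences (log2) were 1.11 for Psmc5, 1.02 for Psmd6, 0.93 for Psma7, 0.79 for Psmd2 and 0.67 for Psmd3. The same was found for 387 of all 12667 genes (3.06%, in either direction). For Psmc5 the diet difference also passed 25% in opposite directions at both ages, lower on the high-fat diet in young mice and higher in old mice, and as the same 4 arrays enter it the value is again 1.11. This was found for 453 of all genes (3.58%). With 1 array per group these differences were not tested.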

How the results depend on the processing

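No paired analysis was possible because each group has 1 array and the labels give no shared replicate numbers. Of the values recomputed for counts and medians over the proteasome genes, 162 stayed near the value reported and 11 moved. Many of these could hardly move. Another floor changes no log2 value and adds or drops few members, and the other variance settings of limma leave a median change as it is. Among the single genes recomputed, no value past 25% or past the adjusted threshold changed sign. A count was taken as near within 1.5-fold, and a median within 0.1635 on the log2 scale with the same sign. That margin is wider than several of the medians themselves. With a threshold of 1.5-fold in place of 2.0-fold, 1 gene passed between old and young mice on the low-fat diet, 1 on the high-fat diet, 4 between the diets in old mice and 9 in the age by diet difference. Median centring moved the counts past 25% to 10 for age on the low-fat diet and 7 for diet in young mice (6 under quantile normalization), the age by diet count past 1.5-fold to 14, and the count with the order opposite to the leading one to 2. It also shifted all genes, of which 36.7% were above 0 for age on the low-fat diet, 36.2% for diet in young mice and 68.6% for the age by diet difference. Because it moved the median age by diet difference of all genes to 0.16, the median of the proteasome genes relative to all genes is 0.23 there. In fits of age alone without 1 array each, the median change of the proteasome genes ran from -0.0762 to 0.159 and was lowest without the old high-fat array. In fits of diet alone it ran from -0.0131 to 0.155 and was again lowest without that array, where the sign turned in both. In these fits a lone array is assumed to vary like the other group. Under median centring 112 of all genes passed for age and 6 for diet in limma, against 50 and 0 as reported. Psmb8 passed for age in 5 alternatives at an adjusted p in limma of 0.0374 (floor of 100), 0.00421 (median centring), 0.0446 (mean of probe sets), 0.0435 (age alone) and 0.0331 (without the young high-fat array). Tap1 no longer passed with no signal floor or without the old high-fat array (adjusted p in limma of 0.115 in each).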
